A study of Homo sapiens with 24 samples.

Results

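A set of 10 genes was read across 4 Ewing sarcoma cell lines: TNFSF13B, SOX18, SH3PXD2A, GAS1, SAMD11, CXCL14, PI15, IL20RB, AADACL4 and CD14. They are 10 of 10882 genes with a tested probe, and they were selected on measured values of these arrays, because their responses to pladienolide B (PlaB) seemed to oppose each other between lines or to occur in single lines. The array carries 15 probes for them out of 47323, and 13 of the 15 passed the filter on dim probes, with at least 1 for each gene. Because the responses chose the genes, they are described here with their standard errors and no p-value is given for them. Calls of the 10 genes come from the fit over all probes and serve as labels, not as evidence beyond the selection.

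The lines were SKNMC, TC32, TC71 and RDES, all from Ewing sarcoma, a tumour of bone and soft tissue that in most cases carries a fusion of EWSR1 with FLI1. Cells grown in RPMI-1640 with 10% FBS received 5 nM PlaB or 0.1% DMSO vehicle and were harvested after 24 h. With 3 arrays per line and treatment there were 24 arrays in 8 groups. The controls are named DMSO vehicle in the sample descriptions and untreated in the treatment protocol. Whether the replicates came from separate cultures is not stated. The p-values therefore reflect variation among these particular arrays, part of which may be technical. Each line is 1 tumour-derived culture.

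PlaB is a macrolide that occupies SF3b, the spliceosome part that recognises the branch point, so introns stay in many transcripts. The 10 genes belong to no common pathway. TNFSF13B encodes BAFF, a cytokine of B cells, CXCL14 is a chemokine, IL20RB is a receptor subunit shared by IL-20 family cytokines, and CD14 is a co-receptor for bacterial lipopolysaccharide. GAS1 is a membrane protein that binds hedgehog ligands, SOX18 is a transcription factor of blood and lymphatic vessel development, and SH3PXD2A encodes TKS5, a scaffold of invadopodia. PI15 is a secreted protein of the CAP superfamily, SAMD11 is a nuclear SAM domain protein, and AADACL4 belongs to a family of serine hydrolases.

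Promoters are shown for 2 pairs of genes that shared a line of strongest decrease: GAS1 and SAMD11 in SKNMC, and TNFSF13B and CXCL14 in TC32. The sequences are from RefSeq (GRCh38.p14), span 300 bases around each gene start and run 5′ to 3′ on the strand of the gene. Capitals mark GGAA and its other-strand form TTCC, the core that ETS factors such as FLI1 recognise. The GAS1 promoter lies at chr9:86947457-86947756 on the minus strand and SAMD11 at chr1:925481-925780 on the plus strand. The TNFSF13B promoter lies at chr13:108269379-108269678 on the plus strand and CXCL14 at chr5:135578942-135579241 on the minus strand.
GAS1: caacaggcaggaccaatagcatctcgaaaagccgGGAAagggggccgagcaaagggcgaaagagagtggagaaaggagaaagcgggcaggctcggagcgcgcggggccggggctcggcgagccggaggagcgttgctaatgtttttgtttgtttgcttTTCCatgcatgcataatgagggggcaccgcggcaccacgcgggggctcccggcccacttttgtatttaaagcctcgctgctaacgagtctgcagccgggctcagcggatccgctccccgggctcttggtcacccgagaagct
SAMD11: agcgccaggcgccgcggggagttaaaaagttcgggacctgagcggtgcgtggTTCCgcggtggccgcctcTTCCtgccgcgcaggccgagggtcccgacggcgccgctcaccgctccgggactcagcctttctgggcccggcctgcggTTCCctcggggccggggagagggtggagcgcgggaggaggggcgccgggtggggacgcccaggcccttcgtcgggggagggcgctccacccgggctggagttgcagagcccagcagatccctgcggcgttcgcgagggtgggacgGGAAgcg
TNFSF13B: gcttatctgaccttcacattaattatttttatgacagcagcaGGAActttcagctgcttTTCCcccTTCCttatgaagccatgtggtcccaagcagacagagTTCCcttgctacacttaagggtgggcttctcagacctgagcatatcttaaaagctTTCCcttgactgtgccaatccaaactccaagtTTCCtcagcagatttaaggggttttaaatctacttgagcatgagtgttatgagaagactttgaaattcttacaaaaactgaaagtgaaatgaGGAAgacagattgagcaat
CXCL14: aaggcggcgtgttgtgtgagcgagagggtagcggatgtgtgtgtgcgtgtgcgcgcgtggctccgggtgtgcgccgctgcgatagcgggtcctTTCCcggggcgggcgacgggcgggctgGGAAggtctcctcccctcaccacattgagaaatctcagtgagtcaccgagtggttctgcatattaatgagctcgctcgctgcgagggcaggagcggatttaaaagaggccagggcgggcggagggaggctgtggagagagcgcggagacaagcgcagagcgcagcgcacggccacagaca
The core occurs 2 times in GAS1, 4 times in SAMD11, 7 times in TNFSF13B and 2 times in CXCL14, counting both strands. It is common: 95.5% of 35116 promoters of the same length hold it, with a median of 3 matches. The repeat GGAAGGAA (or TTCCTTCC) is in 3.67% of those promoters and in none of the 7 promoters found for these genes, and TATAAA (or TTTATA) is in 11.5% and in none of the 7. The matches describe these letters only.

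Arrays detected between 13821 and 18736 probes at a detection p under 0.05, a measure of how a probe's brightness ranks among negative control probes. With PlaB fewer probes were detected on average in every line (for SKNMC 13821 to 15152 with PlaB and 16448 to 16784 with vehicle), although TC71 arrays overlapped between treatments. Of 8 Ewing sarcoma markers, 7 or 8 were detected in each group, and CD99 and NKX2-2 were detected on every array. A response is called rose or fell where limma gave a Benjamini-Hochberg adjusted p under 0.05 over all 17557 tested probes. Of the 8 Ewing sarcoma markers 5 fell in SKNMC, 4 in RDES and 3 each in TC32 and TC71, and 1 rose (BCL11B in TC32). Of all tested probes, 28% fell in SKNMC, 20.2% in RDES, 21.6% in TC32 and 22.2% in TC71, and 19.3% rose in TC32. The CAV1 call in SKNMC was kept by 3 of 6 other scaling methods. PRKCB, a protein kinase C isoform, fell in all 4 lines (-2.35 to -1.76), as did CCND1, and the transcription factor NKX2-2 fell in SKNMC, TC32 and TC71 (-0.95 to -0.60). The summed marker level in SKNMC was 5003 to 5233 with PlaB and 6985 to 7253 with vehicle, and the groups were apart in the other lines too. The part of these decreases in those of the 10 genes was not tested. Normalized log2 intensities, given below as levels, had a detection floor between 4.35 and 4.53. In RNA from whole cultures, fewer cells of a type and less RNA per cell cannot be told apart.

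Only part of the set responded as its selection describes. TNFSF13B and SOX18 were called in both directions, and CXCL14 was called in 1 line, TC32. AADACL4 fell in 2 lines. SH3PXD2A and SAMD11 fell in 3 lines and CD14 rose in 3. GAS1 and PI15 fell in all 4 lines and IL20RB rose in all 4. What these last 6 genes had in common was a single direction with very unequal sizes.

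Among all tested probes, 4.48% were called in both directions, 26.0% in exactly 1 line and 17.1% in all 4 lines in 1 direction. Of the 10 genes, 8 were called in SKNMC, 7 in TC32, 8 in TC71 and 8 in RDES. The shares of all tested probes called were 52.9% in SKNMC, 41% in TC32, 43.7% in TC71 and 39.7% in RDES. By direction, 24.9% of all tested probes rose and 28% fell in SKNMC, 19.3% rose and 21.6% fell in TC32, 21.4% rose and 22.2% fell in TC71, and 19.5% rose and 20.2% fell in RDES. The moderated F-test of unequal responses between lines was passed by 42.4% of probes and by all 10 genes, which were chosen for that property.

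**Figure D1:**
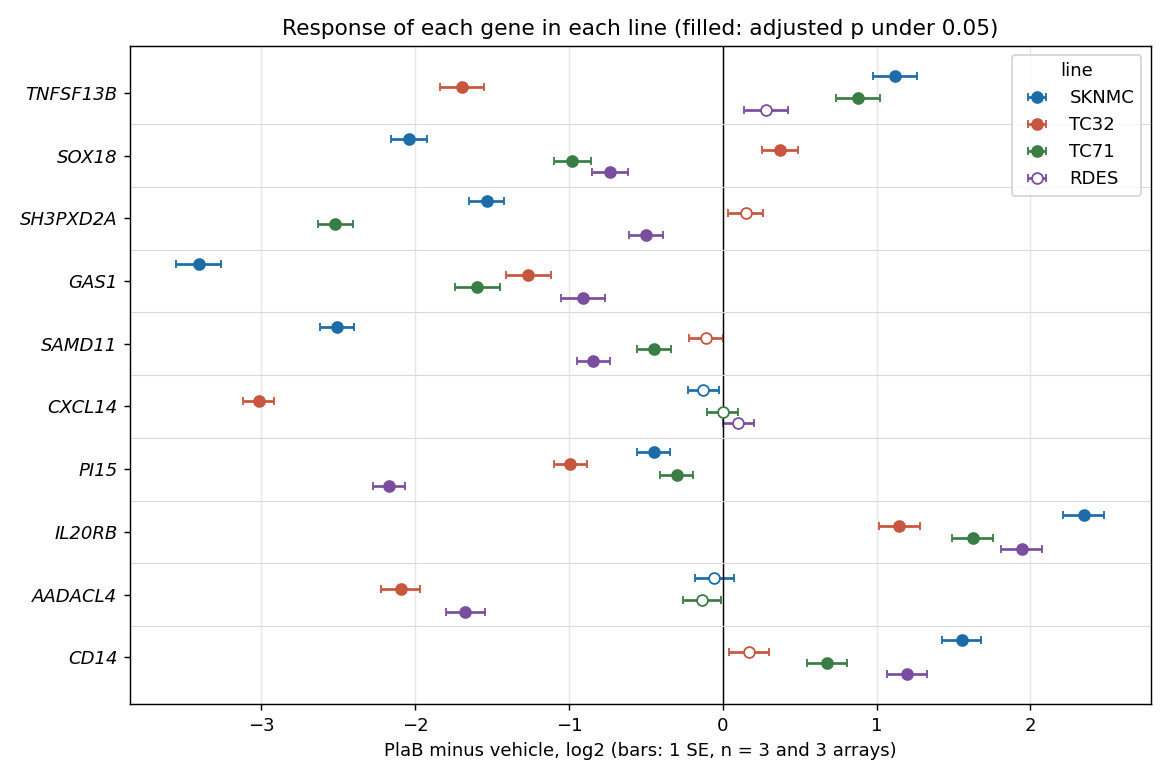
PlaB minus vehicle (log2) for each gene in each of the 4 lines, with bars of 1 SE (3 PlaB and 3 vehicle arrays); filled points have an adjusted p under 0.05. TNFSF13B lies below 0 in TC32 at -1.70 and above 0 elsewhere, CXCL14 leaves 0 in TC32 alone at -3.02, and GAS1, PI15 and IL20RB stay on 1 side in all lines.

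TNFSF13B, the BAFF ligand, was the gene with the clearest opposition. In TC32 its raw intensity was 138, 112 and 130 on the PlaB arrays, against 417, 455 and 240 on the vehicle arrays. In SKNMC it was 126, 130 and 114 with PlaB, against 98.7, 96.3 and 95.2 with vehicle. The groups did not overlap in either line, and the TC32 vehicle arrays were the brightest of all groups and also the most scattered. The log2 difference was -1.70 ± 0.14 in TC32 (SE, n = 3 and 3), a 3.24-fold lower level, and 1.12 ± 0.14 in SKNMC, a 2.17-fold higher level. In TC71 the difference was 0.88 ± 0.14, with raw values of 109, 118 and 113 with PlaB and 93.5, 91.6 and 87.9 with vehicle. In RDES the difference of 0.28 ± 0.14 was not called, and raw values overlapped.

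The other TNFSF13B probe, ILMN_1758418, showed the same order. Its log2 differences were 1.06 in SKNMC, -1.92 in TC32, 0.96 in TC71 and 0.10 in RDES. With PlaB the level of TNFSF13B was 6.45 ± 0.15 in TC32 (SD, n = 3), 6.25 ± 0.16 in SKNMC, 5.85 ± 0.13 in TC71 and 5.38 ± 0.18 in RDES. TC32 and SKNMC did not differ beyond their spread there. With vehicle it was 8.15 ± 0.42 in TC32, 5.13 ± 0.13 in SKNMC, 5.10 ± 0.04 in RDES and 4.97 ± 0.07 in TC71. The 3 lower lines lay within 0.17 log2 of each other, and SKNMC minus TC32 was -3.01 log2.

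CXCL14, a chemokine that many epithelia produce, was detected on all 6 arrays in TC32 alone. Raw intensity in TC32 was 114, 103 and 104 with PlaB, against 619, 639 and 576 with vehicle. The log2 difference of -3.02 ± 0.10 corresponds to an 8.09-fold lower level. All 3 TC32 PlaB arrays still detected the probe. In SKNMC and TC71 no array detected it, and in RDES 1 PlaB array did. Raw intensities there lay between 67.5 and 79.1, the range of undetected probes, so those 3 lines gave no measurable vehicle level. Epithelial markers in TC32, undetected probes included, summed to 178 to 207 with PlaB and 142 to 159 with vehicle. The keratin KRT18, the only one detected on all arrays there, rose by 0.79 ± 0.14 (limma adjusted p = 3.8e-05). KRT18 also rose in RDES (0.81) and was called downward in SKNMC (-0.34, kept by 1 of 6 other scaling methods). The junction protein CLDN7 was called in TC71 alone (-0.28, kept by 4 of 6 other scaling methods), and the part of these markers in the CXCL14 result was not tested.

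IL20RB, the receptor subunit, rose in every line from levels close to the floor. In SKNMC the raw intensity was 197, 163 and 164 with PlaB, against 79.5, 83.9 and 91.6 with vehicle. In TC32, where the change was smallest, it was 111, 95.8 and 91.4 with PlaB, against 78.5, 85.6 and 79.8 with vehicle, and 2 of those 3 vehicle arrays detected it. No line had overlapping groups. Log2 differences were 2.35 ± 0.13 in SKNMC, 1.94 ± 0.13 in RDES, 1.62 ± 0.13 in TC71 and 1.15 ± 0.13 in TC32. Levels with PlaB ran between 5.71 in TC32 and 7.02 in SKNMC, and SKNMC and RDES, at 6.94, did not differ beyond their spread. Levels with vehicle lay between 4.57 and 5.00 in the 4 lines, with SDs of 0.18 to 0.20.

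CD14, the lipopolysaccharide co-receptor best known from monocytes, also rose from near the floor. Raw intensity in SKNMC was 123, 103 and 112 with PlaB, against 80.2, 76.4 and 82.8 with vehicle. In RDES it was 97.9, 104 and 116 with PlaB, against 80.2, 75.3 and 81.5 with vehicle. These groups did not overlap, and the same held in TC71. The log2 differences were 1.55 ± 0.13 in SKNMC, 1.20 ± 0.13 in RDES and 0.68 ± 0.13 in TC71, and the value of 0.17 ± 0.13 in TC32 was not called. Vehicle detection was 2 of 3 arrays in SKNMC and in RDES. The other CD14 probe, ILMN_1740015, did not pass the detection filter in any group.

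Blood markers moved in both directions beside CD14. Of 12 such markers 4 were tested, and in SKNMC 2 rose and 1 fell. TYROBP was detected on no array, and PTPRC, the pan-leukocyte CD45 gene, on 0 of 12 PlaB arrays and 1 of 12 vehicle arrays. The summed linear level of the 12 markers in SKNMC was 449 to 523 with PlaB and 398 to 415 with vehicle, and CD68, a lysosomal protein, rose there by 1.06 ± 0.16 log2 (limma adjusted p = 2e-06). CD79A, a part of the B cell receptor, rose in SKNMC by 0.74 ± 0.13 and in RDES by 0.36 ± 0.13 (the RDES call kept by 3 of 6 other scaling methods), and CORO1A, an actin-binding protein of leukocytes, was at least 1.64-fold lower in SKNMC. AIF1, a macrophage protein, was detected on 7 of 12 PlaB arrays and 9 of 12 vehicle arrays. In the other 3 lines the sums lay between 251 and 314 with PlaB and between 244 and 293 with vehicle. Their part in the CD14 result was not tested.

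SOX18, the vessel transcription factor, fell in 3 lines and was called upward in TC32. Raw intensity in SKNMC was 126, 111 and 121 with PlaB, against 410, 398 and 379 with vehicle. In TC32 it was 88.6, 78.4 and 82.7 with PlaB, against 82.4, 82.2 and 79.9 with vehicle. The SKNMC groups were far apart, while the raw TC32 groups overlapped and separated only after normalization. Log2 differences were -2.04 ± 0.12 in SKNMC, -0.98 ± 0.12 in TC71, -0.74 ± 0.12 in RDES and 0.37 ± 0.12 in TC32. The TC32 call was lost under 4 other ways of treating the values, at 0.12 to 0.17 log2, and without TC32 PlaB replicate 1, at 0.27.

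With PlaB the order of SOX18 levels was TC71 at 6.81 ± 0.06, RDES at 6.74 ± 0.12, SKNMC at 6.17 ± 0.13 and TC32 at 4.96 ± 0.24, and TC71 and RDES did not differ beyond their spread. With vehicle the levels were 8.21 ± 0.14 in SKNMC, 7.79 ± 0.17 in TC71, 7.48 ± 0.07 in RDES and 4.58 ± 0.05 in TC32, where SOX18 was near the floor. Among 8 endothelial markers, CDH5, VWF and KDR were detected on no array. Where a group has no array that detected a probe, the change is given below as the smallest fold that the detection floor allows. The cell-junction gene ESAM was at least 1.70-fold higher with PlaB in SKNMC (limma adjusted p = 3.7e-08) and at least 2.26-fold higher in TC71 (limma adjusted p = 4.3e-10), lines where SOX18 fell. In RDES it rose by 1.26 ± 0.12 log2, with 1 of 3 vehicle arrays detecting it. Of the 8 markers, 0 were detected on all 3 SKNMC vehicle arrays and only ESAM on all 3 SKNMC PlaB arrays. Their summed level in SKNMC, undetected probes included, was 164 to 168 with PlaB and 143 to 149 with vehicle. Their part in the SOX18 result was not tested.

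GAS1, the hedgehog co-receptor, gave the largest single response of the set. In SKNMC its raw intensity was 115, 126 and 112 with PlaB, against 991, 873 and 774 with vehicle. In TC71 it was 157, 164 and 178 with PlaB, against 466, 459 and 398 with vehicle. In TC32, the line with the lowest level, it was 98.8, 80.3 and 93.6 with PlaB, against 164, 181 and 142 with vehicle. Groups were apart in all lines, RDES included. The log2 differences were -3.41 ± 0.15 in SKNMC, a 10.6-fold lower level, -1.60 ± 0.15 in TC71, -1.27 ± 0.15 in TC32 and -0.91 ± 0.15 in RDES.

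The order of the lines for GAS1 changed with treatment. With PlaB, RDES was highest at 7.44 ± 0.11, then TC71 at 6.81 ± 0.03, SKNMC at 6.14 ± 0.20 and TC32 at 5.33 ± 0.39. With vehicle, levels were 9.55 ± 0.24 in SKNMC, 8.41 ± 0.10 in TC71, 8.35 ± 0.17 in RDES and 6.60 ± 0.11 in TC32, and TC71 and RDES did not differ beyond their spread. The second GAS1 probe, ILMN_2062701, was dim and called in no line, with differences between -0.25 and -0.014. Of 9 fibroblast and mesenchymal markers, 7 fell in SKNMC, 5 in RDES and 4 each in TC32 and TC71, against 20.2 to 28% of all tested probes in a line. PDGFRB, a growth factor receptor of mesenchymal cells, fell in all 4 lines and was at least 1.99-fold lower in SKNMC, and TAGLN, an actin-binding protein, rose in all 4. The summed level of the 9 markers in SKNMC was 720 to 811 with PlaB and 1215 to 1453 with vehicle, and it was also lower with PlaB in TC32 and RDES. In TC71 the sums overlapped, at 338 to 353 with PlaB and 319 to 349 with vehicle. The part of these markers in the GAS1 result was not tested.

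SAMD11, the SAM domain protein, had its decrease mainly in SKNMC. Raw intensity there was 105, 104 and 101 with PlaB, against 396, 395 and 450 with vehicle. In TC71 it was 252, 247 and 277 with PlaB, against 390, 382 and 342 with vehicle. The PlaB arrays of these 2 lines stood far apart, and their vehicle arrays lay side by side. Log2 differences were -2.51 ± 0.11 in SKNMC, -0.84 ± 0.11 in RDES and -0.45 ± 0.11 in TC71, while -0.11 ± 0.11 in TC32 was not called. The dimmer of the 2 SAMD11 probes was called in SKNMC alone, at -0.54.

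SH3PXD2A, the TKS5 scaffold, separated lines that had nearly 1 level with vehicle. In TC71 its raw intensity was 91.7, 89.2 and 95.8 with PlaB, against 299, 274 and 296 with vehicle. In TC32 it was 214, 199 and 221 with PlaB, against 241, 266 and 213 with vehicle. The TC71 groups were apart and the TC32 groups overlapped. Log2 differences were -2.52 ± 0.11 in TC71, -1.54 ± 0.11 in SKNMC and -0.50 ± 0.11 in RDES. The TC32 value of 0.15 ± 0.11 was not called, and its sign turned among the scaling methods (-0.20 to 0.16).

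PI15, the secreted CAP protein, fell most in RDES. Raw intensity there was 100, 101 and 120 with PlaB, against 313, 297 and 297 with vehicle. In TC32 it was 124, 113 and 122 with PlaB, against 237, 221 and 208 with vehicle. Both pairs of groups were well apart. Log2 differences were -2.17 ± 0.11 in RDES, -0.99 ± 0.11 in TC32, -0.45 ± 0.11 in SKNMC and -0.30 ± 0.11 in TC71. The TC71 call was lost without TC71 PlaB replicate 1 (-0.24) and without TC71 vehicle replicate 2 (-0.22). A second PI15 probe, ILMN_2071446, was not detected in any full group and had differences of 0.05 in SKNMC, -0.12 in TC32, 0.22 in TC71 and 0.12 in RDES.

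AADACL4, the hydrolase family member, was detected on all 3 vehicle arrays in TC32 and RDES. In TC32 its raw intensity was 75.6, 72.6 and 77.1 with PlaB, against 150, 175 and 136 with vehicle. In RDES it was 78.6, 71.7 and 74.0 with PlaB, against 131, 124 and 125 with vehicle. With PlaB 1 of 3 arrays detected it in each of these lines, so the PlaB levels lay at the floor. Log2 differences were -2.09 ± 0.12 in TC32 and -1.67 ± 0.12 in RDES, and the floor limits both sizes. In TC71 no array detected it, and in SKNMC 0 of 3 PlaB arrays and 2 of 3 vehicle arrays did.

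**Figure D2:**
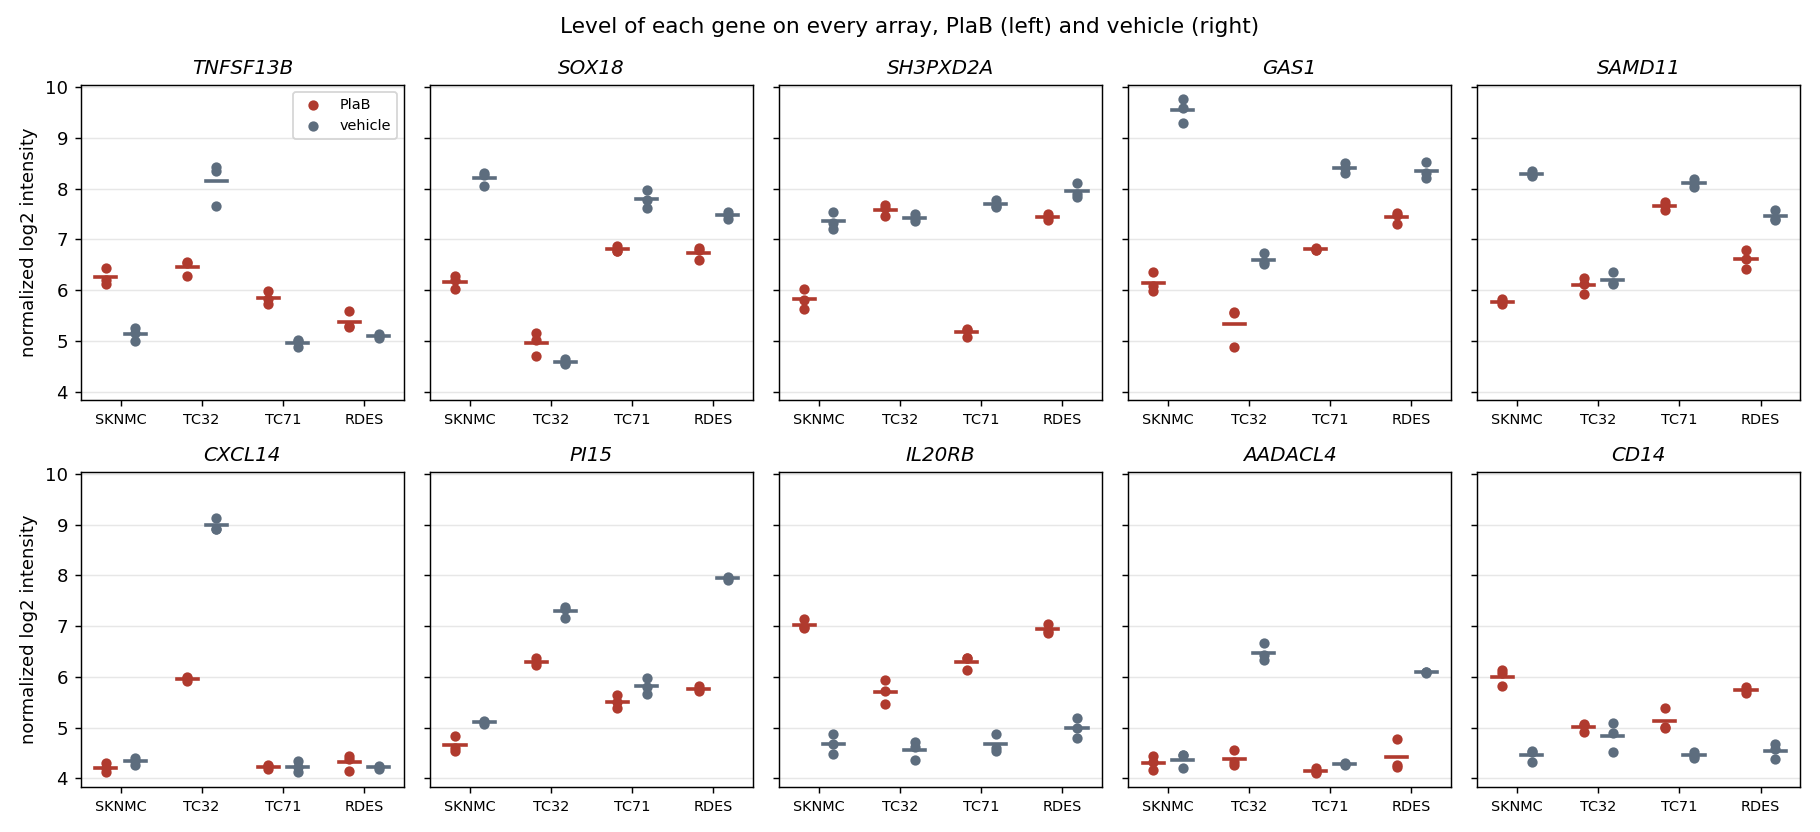
Normalized log2 intensity of each gene on all 24 arrays, by line, with PlaB at left and vehicle at right and bars at the mean of 3 arrays. TNFSF13B and CXCL14 stand out in TC32 vehicle arrays at 8.15 and 8.98, and GAS1 in SKNMC vehicle arrays at 9.55.

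Vehicle level and response were set side by side over group means. In 8 of the 10 genes the line with the highest vehicle level was also the line with the lowest (most negative or least positive) response. The exceptions were SH3PXD2A and IL20RB. Among all tested probes this held for 39.6%, and for 31.8 to 51.6% under the alternatives run. Vehicle levels spanned at least 2 log2 between lines for 787 tested probes and 7 of the 10 genes. There it held for 52.9% of the probes and for all 7 genes. Nothing is read from the 8 genes against those shares, because the count is built from the responses that chose the genes. The vehicle mean also enters both quantities. AADACL4 passed the filter on dim probes through its vehicle groups in TC32 and RDES, where it was high. CXCL14 passed it through TC32 alone, and in the other lines, at the floor, it could hardly fall. The CD14 vehicle levels spanned 0.38 log2, near their spread. When the level came from 1 vehicle array and the response from the other 2, the count was 7 or 8 of 10. The share of all tested probes was then 31.8 to 35%. The same responses still chose the genes, so nothing is read from this count either.

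**Figure D3:**
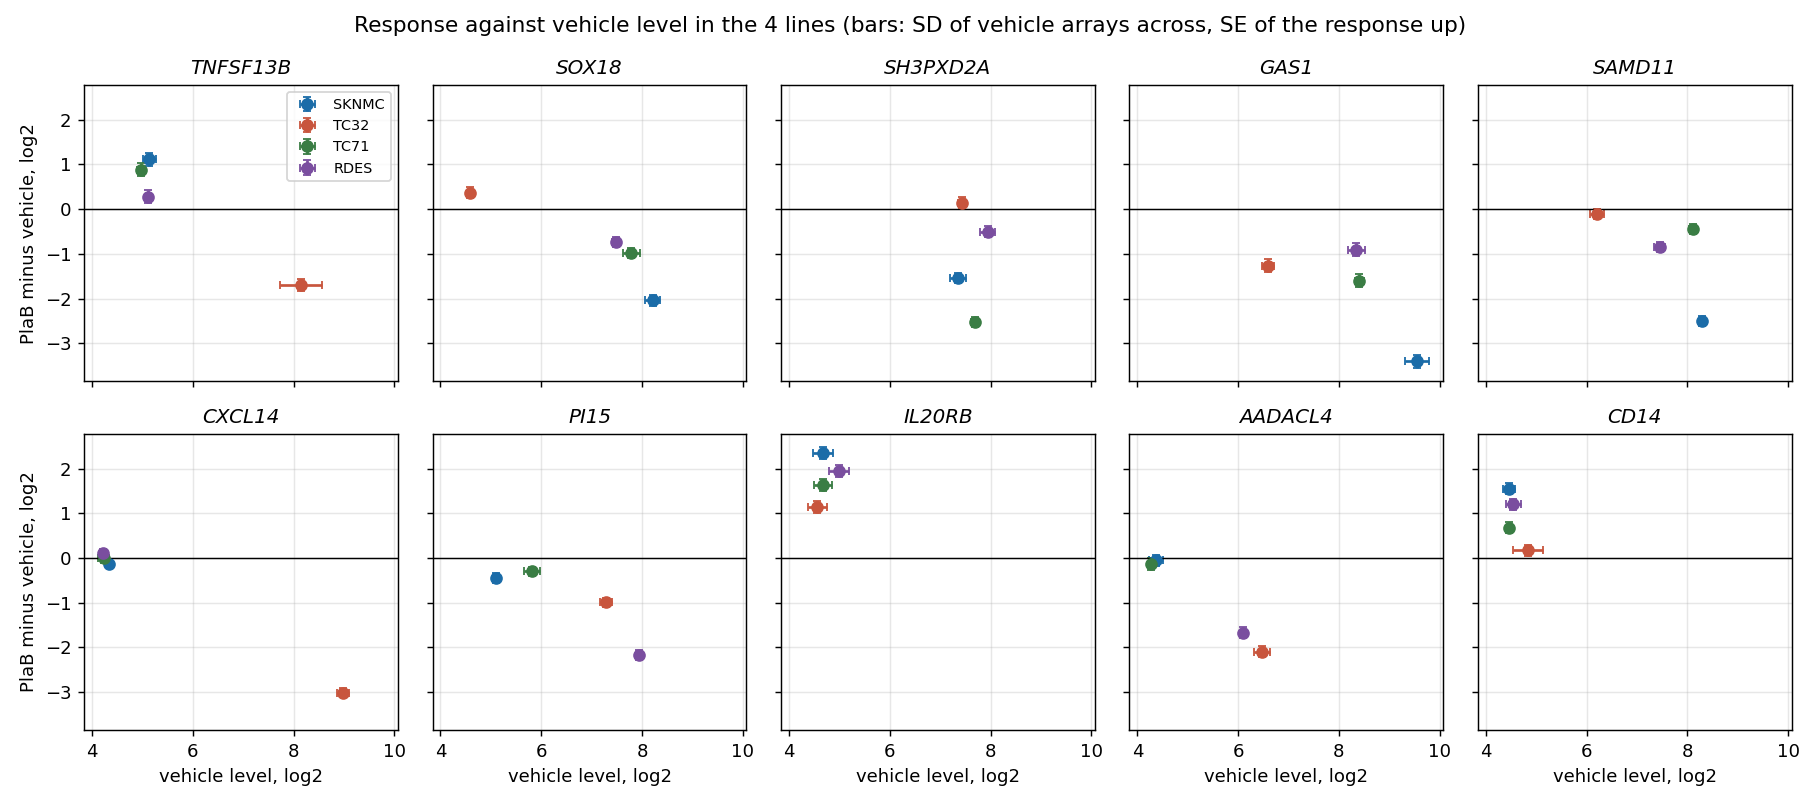
PlaB minus vehicle (log2, up) against vehicle level (log2, across) in the 4 lines for each gene, with bars of 1 SD of 3 vehicle arrays across and 1 SE of the response up. CXCL14 and TNFSF13B place TC32 alone at lower right, while SH3PXD2A and IL20RB spread in response at nearly 1 vehicle level.

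The lines came closer together with PlaB for 7 of the 10 genes, against 44.1% of all tested probes. These are the 7 genes whose vehicle levels spanned at least 2 log2. Of the 787 tested probes with such a span, 76.1% had lines closer together with PlaB. The median span between lines was 1.70 log2 with PlaB and 2.51 with vehicle for the 10 genes, and 0.67 with PlaB and 0.60 with vehicle for all tested probes. These counts rest on the same responses and are given as a description. CXCL14 spanned 1.76 log2 with PlaB and 4.76 with vehicle, and its lowest levels, 4.21 with PlaB and 4.22 with vehicle, lay below the floor. AADACL4 spanned 0.27 with PlaB and 2.20 with vehicle, and its PlaB levels of 4.14 to 4.42 lay at or below the floor. SH3PXD2A, IL20RB and CD14 went the other way: SH3PXD2A spanned 2.41 with PlaB and 0.59 with vehicle.

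The leading line seldom kept its place. The line with the highest vehicle level stayed highest with PlaB in 2 of 10 genes, TNFSF13B and CXCL14, against 60.3% of all tested probes. Where vehicle levels spanned at least 2 log2, it stayed highest in 86.7% of 787 probes and in 2 of 7 genes of the set. Because the genes were chosen for unequal responses between lines, a change of order was likely beforehand, and nothing is read from this count. For CD14 and IL20RB the vehicle levels lay near the floor and spanned only 0.38 and 0.43 log2. For SAMD11, SKNMC was last of 4 lines with PlaB and first with vehicle. For GAS1 and SOX18 it was the third with PlaB and first with vehicle.

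Calls also differed by vehicle level. Taking each gene in each line as a pair gave 40 pairs, of which 31 were called. Of 15 pairs with a vehicle level under 5 log2, 9 rose and 0 fell, against 14.1% and 8.92% of all tested probes at that level. A probe at the floor can hardly fall on this scale, and the calls are those that chose the genes, so nothing is read from these counts. Of 17 pairs at 7 and over, 0 rose and 16 fell, against 24.2% and 36.5%. Between 5 and 7, 1 pair rose and 5 of 8 fell, against 27.9% and 31.3%.

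**Figure D4:**
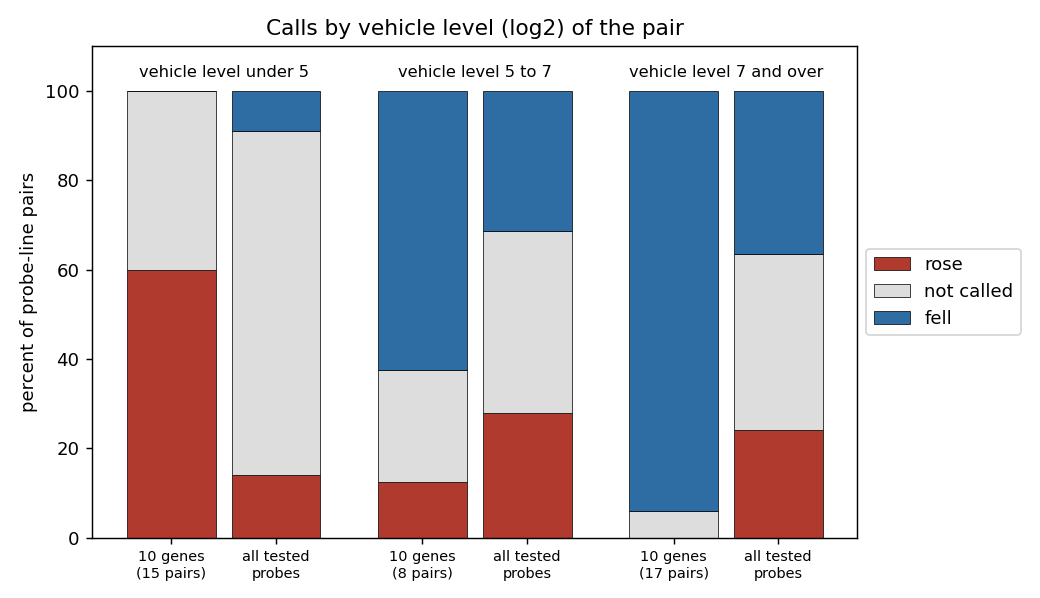
Percent of gene-line or probe-line pairs that rose, were not called or fell, in 3 ranges of vehicle level (log2); within each range the 10 genes stand left of all tested probes. Of the pairs of the 10 genes, 9 of 15 rose under 5 and 16 of 17 fell at 7 and over.

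Several pairs of lines had close vehicle levels and unlike responses. For SAMD11 the vehicle level of SKNMC minus TC71 was 0.18 ± 0.11 log2 (SE), and the response of SKNMC minus TC71 was -2.06 ± 0.15. For SH3PXD2A, TC32 minus TC71 was -0.26 ± 0.11 in vehicle level and 2.67 ± 0.16 in response. For CD14, SKNMC minus TC71 was 0.00052 ± 0.13 in vehicle level and 0.87 ± 0.18 in response. Both of these CD14 vehicle levels were 4.46, within the range of the detection floor, so their likeness cannot show that the 2 lines expressed CD14 alike. In these 3 cases the difference in response was many times the difference in vehicle level. Conversely GAS1 differed by -1.81 ± 0.15 in vehicle level between TC32 and TC71 and by 0.33 ± 0.21 in response. The genes were chosen for unequal responses between lines and these pairs of lines are examples, so nothing is read from them.

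Levels of some of the 10 genes ran together over the 24 arrays, which fall into groups by line and treatment, so the correlations describe the pattern of groups. Pearson's r was 0.91 for IL20RB and CD14, 0.90 for TNFSF13B and CXCL14, 0.87 for SOX18 and GAS1, and 0.85 for PI15 and AADACL4. TNFSF13B and SOX18 had an r of -0.89. Outside the set, the 3 genes with the most similar levels were named for each. For CXCL14 they were IL24 (r = 0.994), PDE7B (0.993) and CXCR4 (0.985), for TNFSF13B FRZB (0.975), ALKAL2 (0.930) and CASP1 (0.924), and for AADACL4 NEUROD6 (0.953), ANKRD29 and WNT5A. For IL20RB they were SDHAP1 (0.971), LAMTOR3 and CLDN15, for CD14 RBBP6 (0.936), RBBP5 and UBOX5, and for SOX18 PLOD2 (0.971), NCKAP1L and PKP2. For GAS1 they were N4BP2L2 (0.951), SUPT20H and TUBB4A, for SAMD11 GTF2H5 (0.929), OR7E156P and MRPL20-AS1, for PI15 VPS29 (0.942), PCDH7 and MCM7, and for SH3PXD2A EMG1 (0.910), NSL1 and MED22.

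FRZB, a secreted Wnt antagonist, matched TNFSF13B in direction as well. Its log2 differences were -1.26 in TC32, 0.88 in SKNMC, 0.42 in TC71 and 0.25 in RDES. PDE7B, a cyclic AMP phosphodiesterase, changed by -1.47 in TC32 and by at most 0.04 in size elsewhere.

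Genes of the pathways around each member were read from lists, leaving the members out. Among CXC chemokines and receptors, 5 of 18 genes on the chip were tested. In TC32 4 of the 5 fell and 0 rose, while 21.6% of all tested probes fell and 19.3% rose. Their median was -0.66 log2 against -0.02 for all tested probes. A gene that passed the filter through a line where it was high can mainly fall there, so nothing is read from this count. CXCR4, the receptor of CXCL12, was at 6.68 with PlaB and 8.35 with vehicle in TC32, a difference of -1.66 ± 0.10 (limma adjusted p = 1.6e-13). It was not called in SKNMC (0.12), TC71 (0.05) or RDES (-0.04). Another CXCR4 probe, ILMN_2320888, is the one named above as similar to CXCL14. That probe stood at -1.38 in TC32 and between -0.08 and 0.03 in the other lines. CXCL16 fell in TC32 (-0.66) and TC71 (-0.76), and ACKR3 (-0.69) and CXCL12 (-0.43) fell in TC32. The CXCL12 call was kept by 4 of 6 other scaling methods. CXCL8 (interleukin-8) rose in SKNMC by 1.09 ± 0.11 (limma adjusted p = 8.6e-10; 1 of 3 vehicle arrays detected it) and was not called elsewhere.

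Around CD14, the lipopolysaccharide receptor list had 6 tested genes, and 3 rose and 1 fell in SKNMC, 4 rose and 1 fell in TC32, 2 rose and 1 fell in TC71, and 4 rose in RDES. The number that rose was as low as 1 in SKNMC, 1 in TC32, 0 in TC71 and 2 in RDES under another scaling. LY96 encodes MD-2, the subunit that holds lipopolysaccharide on TLR4. It fell in SKNMC (-1.58 ± 0.16), TC32 (-1.07 ± 0.16) and TC71 (-0.84 ± 0.16), and was called upward in RDES at 0.41 ± 0.16 (F-test of unequal responses, limma adjusted p = 6.7e-07). Its vehicle level was lowest in RDES, 4.82 against 6.99 to 7.84 in the other lines, and the RDES call was kept by 2 of 6 other scaling methods. The adaptor TICAM2 rose in SKNMC by 1.64 ± 0.14, in TC32 by 1.27 ± 0.14 and in RDES by 0.70 ± 0.14. The ubiquitin ligase TRAF6 rose in all 4 lines, by 0.30 to 0.83, and its TC71 call was kept by 2 of 6 other scaling methods.

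Around IL20RB, 6 of 7 tested genes of the IL-20 receptor and JAK-STAT list were called in at least 1 line, against 76.6% of all tested probes. JAK1, the kinase of this receptor family, fell in every line, with differences of -1.23 ± 0.13 in SKNMC, -0.85 ± 0.13 in TC32, -0.57 ± 0.13 in TC71 and -0.44 ± 0.13 in RDES (limma adjusted p 4.6e-09 to 0.009), while IL20RB itself rose. The cytokine IL24 fell by 1.68 ± 0.11 in TC32, the one line where all arrays detected it. In SKNMC 4 genes of the list fell and 0 rose, with a median of -0.30 against -0.02 for all tested probes, in TC32 2 fell and 0 rose, and in TC71 and RDES 1 rose and 1 fell in each.

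The hedgehog list around GAS1 had 6 tested genes and moved both ways. KIF7, a ciliary regulator of GLI proteins, rose in SKNMC by 0.60 ± 0.13, in TC32 by 0.93 ± 0.13 and in RDES by 0.98 ± 0.13. The transducer SMO rose by 0.38 to 0.53 in SKNMC, TC32 and RDES. GLI1, a transcription factor and target of the pathway, was detected on no PlaB array in SKNMC or TC71. It was at least 1.25-fold lower in SKNMC (limma adjusted p = 4.2e-06) and at least 1.09-fold lower in TC71 (limma adjusted p = 0.012). PTCH1, on the same list, was called in no line (-0.05 to 0.03). GLI2 rose in TC32 (0.34) and fell in TC71 (-0.63) and RDES (-0.35). GLI3 rose in TC32 (0.36), fell in RDES (-0.64) and was at least 1.21-fold lower in SKNMC. Its TC32 and SKNMC calls were each kept by 4 of 6 other scaling methods. In TC32 4 genes rose and 0 fell, and the number that rose ran between 1 and 5 under other scaling methods.

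Of the podosome and invadopodium list around SH3PXD2A, 10 genes were tested, of which 3 rose and 4 fell in SKNMC, 3 rose and 1 fell in TC32, 3 rose and 2 fell in TC71, and 3 rose and 3 fell in RDES. WASL and GRB2, adaptors of actin assembly and growth factor signalling, rose in all 4 lines, WASL by 0.72 to 0.85 and GRB2 by 0.66 to 0.85. SRC, the kinase that phosphorylates TKS5, rose by 1.22 ± 0.14 in TC32, 1.07 ± 0.14 in RDES, 0.72 ± 0.14 in SKNMC and 0.36 ± 0.14 in TC71, the last call being kept by 3 of 6 other scaling methods. Other genes of the list fell: ADAM15 in all 4 lines (-0.76 to -0.30) and CYBA in SKNMC, TC71 and RDES (-0.73 to -0.54). The related scaffold SH3PXD2B fell in SKNMC (-0.59 ± 0.11) and RDES (-0.32 ± 0.11). In TC71, where SH3PXD2A fell most, SH3PXD2B stood at -0.0034 ± 0.11 and was not called.

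The remaining lists had few tested genes. In the BAFF and APRIL list TNFSF13B had 3 tested partners, and BIRC2, an inhibitor of apoptosis, rose in SKNMC, TC32 and TC71 by 0.39 to 0.61, each call being kept by 5 of 6 other scaling methods. TRAF3 rose in SKNMC by 0.45, and NFKB2 was at least 1.19-fold higher in TC71. SOX7, a relative of SOX18, rose in SKNMC by 0.69 ± 0.12 and was at least 1.21-fold higher in RDES, lines in which SOX18 fell. EGFL7 fell in TC32 (-0.39, kept by 2 of 6 other scaling methods) and CLDN5 was at least 1.18-fold lower in TC71. ESAM and CLDN5 stand on both the SOX18 list and the endothelial list. In the SAMD family SAMD5 fell in TC32 (-0.74) and was at least 1.56-fold lower in TC71 and at least 1.28-fold lower in RDES, and SAMD4B rose in all 4 lines by 0.39 to 0.76. In the CAP superfamily CRISPLD1 was at least 1.34-fold lower in SKNMC and GLIPR1 rose in TC32 by 0.33 (kept by 3 of 6 other scaling methods), and in the AADAC family NCEH1 rose in SKNMC by 0.48.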

How the data were processed

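Total RNA of 4 cell lines was profiled on Illumina beadchips. Per the file headers, the deposited table holds 1 non-normalized probe intensity and 1 detection p-value per array. The deposited series matrix holds log2 values, per the file headers, and within 0.03 log2 it could be traced to a normalization of the intensities for TC32 only (99.996% of probes), so it served as an alternative there. GenomeStudio, lumi and R 3.0.2 appear in the submitters' processing notes. Here intensities were background-corrected from the detection p-values, given an offset of 16, quantile-normalized on the log2 scale (neqc method, limma 3.58.1, R 4.3.3) and fitted by group means over all 24 arrays (16 residual and 13.7 prior degrees of freedom). Testing was limited to the 17557 of 47323 probes with detection p under 0.05 throughout at least 1 group of 3 arrays. Two-sided p-values were adjusted by Benjamini-Hochberg across these probes. Each gene was read from its brightest tested probe, named through the platform annotation. Outside the 10 genes, the text names the 3 most correlated genes for each, the 2 list genes with the largest mean change among those called, and genes needed for small counts. Other list genes, among them CXCL8, CXCL12, ACKR3, TRAF6, GLI1, GRB2, SH3PXD2B, TRAF3, EGFL7 and CLDN5, were named after their values were seen. The same holds for PTCH1, GLI2, GLI3, ADAM15, CYBA and CAV1. The genes and lists were chosen with earlier results of these data known. The scripts were tested on simulated data. Replicate numbers were checked for pairing: deviations of same-numbered arrays correlated at -0.04 to 0.05 in 12 pairs, so they share only a number. No read depth exists for arrays, and the number of arrays limits precision. The build behind the probe positions is not given in the sources used here.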

Additional observations from a re-analysis of the deposited data

Results flagged for a closer look

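Looked at here were the 10 genes and the up to 2 genes taken by rule from each pathway list. Of these, 3 genes (TNFSF13B, SOX18 and LY96) were called in opposite directions with unequal responses between lines, and 2 of the opposite calls were weak. Other list genes, among them GLI2, GLI3, IL10RB and KRT18, were also called both ways, as were 4.48% of all tested probes. The SOX18 call upward in TC32 was lost under 4 other settings and without 1 array, and the LY96 call upward in RDES (0.41) was kept by 2 of 6 other scaling methods. The response of TNFSF13B (PlaB minus vehicle) was 2.82 log2 higher in SKNMC than in TC32, and that of SOX18 was 2.41 log2 higher in TC32 than in SKNMC. These 2 genes were chosen for such differences, so the differences were not tested. Raw SOX18 intensities overlapped between treatments in TC32. The response of LY96 was 1.99 log2 higher in RDES than in SKNMC, and its responses differed between the 4 lines in the F-test (limma adjusted p = 6.7e-07).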

How the results depend on the processing

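Over 317 values under other settings and 744 with 1 array left out, every called response of the 10 genes, read from the brightest probe, kept its direction. Calls lost were SOX18 in TC32, at 0.17 with an offset of 50, 0.13 without background correction, 0.17 with median centring, 0.12 in the series matrix and 0.27 without TC32 PlaB replicate 1, and PI15 in TC71, at -0.22 and -0.24 without 1 array. Calls gained were SAMD11 in TC32 (-0.48, median centring) and CXCL14 in SKNMC (0.24, cyclic loess). The dim second PI15 probe, which did not pass the filter, stood at 0.049 in SKNMC, 0.22 in TC71 and 0.12 in RDES, against the sign of the brighter probe, and the cause was not tested. Counts of called probes stayed within 1.5 times under all alternatives run: 8738 to 11162 in SKNMC, 6178 to 9028 in TC32, 6876 to 8156 in TC71 and 6051 to 7033 in RDES, with arrays left out 8514 to 9348 in SKNMC and 6393 to 7281 in TC32. The number of genes whose highest vehicle line had the lowest response stayed at 7 or 8 of 10. With replicate number as a replicate block 9278 probes were called in SKNMC and 7121 in TC32, and no call of the 10 genes changed. Median centring moved the median response of all probes by -0.12 log2 and centring on probes detected on all arrays by 0.15. Levels near the floor limit what CXCL14, AADACL4, CD14 and IL20RB can show.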
